A study of Mus musculus with 138 samples.

Results

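Loss of SMARCA5 from the growing oocyte and loss of SMARCA5 after fertilization were compared gene by gene in mouse 2-cell embryos. For each gene, the value was the log2 change between 2-cell embryos labelled Smarca5 +/- and Smarca5 +/+ minus the log2 change between embryos injected with an antibody to SMARCA5 and embryos injected with IgG. The comparison used the libraries of these 4 groups with at least 100000 total counts, 101 of the 138 libraries of the series, with 1 mean per group. A gene whose difference had an adjusted p under 0.05 in edgeR's quasi-likelihood test was called differing, and 2315 of 12035 genes tested were.

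The series profiled polyadenylated RNA of 2-cell embryos, 1 library per plate well, from the RNA arm of scNMT-seq, a method that also yields the methylation and accessibility of the DNA of each sample. The design text describes the Smarca5 +/- embryos (28 libraries kept, called maternal deletion here) as offspring of Smarca5 maternal-knockout females and wild-type males. The Smarca5 +/+ embryos (22 libraries, wild type here) carry matKO females in their titles too, so the titles do not tell the mothers of the 2 groups apart, and the Cre driver, strain and age of the mothers are not given in the sources used here. The TrimAway embryos were wild type, and their protein was degraded at the zygote stage by an injected antibody: 31 libraries had the antibody to SMARCA5 and 20 had IgG. A replicate number marked a pool of embryos, which the design text calls technical, so p-values measure the spread between embryos of these pools. The experiment, its controls, its collection and its sequencing lane cannot be told apart from the time of loss, because each experiment came with its own control group and its own lanes.

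SMARCA5, also called SNF2H, is the ATPase of the ISWI chromatin remodellers, which slide and space nucleosomes. A growing mouse oocyte transcribes and stores the RNA and protein that carry the embryo through fertilization, and transcription of the embryo's own genome starts in the zygote and becomes strong at the 2-cell stage, while stored RNA is degraded. TrimAway removes protein that is already present: the injected antibody binds its target, the ubiquitin ligase TRIM21 binds the antibody, and the complex is sent to the proteasome. A deletion made during oocyte growth therefore covers the period in which maternal RNA is made, and TrimAway does not.

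Total counts of the 101 libraries ran from 109007 to 12004992 (median 1474349). The wild-type libraries had a median of 545264 and the maternal deletion libraries 1618485, while the anti-SMARCA5 and IgG medians were 1481635 and 1708008. Levels below are CPM, counts scaled to a common library size after TMM normalisation. Per the headers, deletion replicates 1 and 2 were on different lanes, and no IgG library of replicate 2 passed the minimum. The 7 anti-SMARCA5 libraries of replicate 2 stayed in the main contrast without a control of their replicate. A shift of that replicate can therefore enter the TrimAway changes, unless the replicate number is fitted as a block. Markers fixed for embryo and oocyte were detected in each group (8 of 8), with a summed level of 683 to 27700 CPM in a library. The summed level of 23 cumulus and granulosa markers had medians of 41.8 CPM in maternal deletion, 70.2 in wild type, 73.7 in anti-SMARCA5 and 64.9 in IgG, with 2, 8, 2 and 5 markers at 0. The highest mean was that of Cyp19a1 in maternal deletion (11.7 CPM). It was that of Amhr2 in wild type (57.5), anti-SMARCA5 (27.2) and IgG (42.4). The summed level of 14 sperm transcripts had medians of 174, 109, 139 and 85.9 CPM, most of it from Odf2, and that of 9 blood markers 26.2, 20.3, 36.6 and 20.2 CPM. The part of these cells in the results was not tested.

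Smarca5 itself (chr8:80698507-80739497, minus strand, GRCm38) checked the labels. Its level was 2.92 to 311 CPM (median 88.9) in maternal deletion and 153 to 822 CPM (median 345) in wild type, and all 28 maternal deletion libraries were below the wild-type median. It was 51.6 to 1300 CPM (median 358) after anti-SMARCA5 and 242 to 1420 CPM (median 641) after IgG, groups that overlapped over most of their range. Smarca5 RNA was lower after deletion (log2 change -2.13, SE 0.30, adjusted p 2.89e-09), and the TrimAway change was -0.65 (SE 0.29, unadjusted p 0.0257), so the difference was -1.48 (SE 0.42, adjusted p 0.00775; 0.0794 once the replicate number enters as a block). TrimAway acts on protein, so this RNA does not check it. Trim21 was at 0 in every maternal deletion library and at most at 1.7 CPM in wild type. It had a median of 1370 CPM after anti-SMARCA5, and 12 of the 20 IgG libraries held at most 3 counts of it, so the 2 TrimAway groups differed in Trim21 RNA as well as in the antibody. This depended on the replicate: Trim21 was at 0 in all 10 IgG libraries of replicate 1 and in 2 of 10 of replicate 3 (median 288 CPM), and the TrimAway change differed between these replicates (adjusted p 0.000435). The part of Trim21 in the results of replicate 1 was not tested.

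The genes that differed had larger deletion than TrimAway changes wherever the signs agreed. Of the 12035 genes tested, 2315 (19.2%) differed: 1264 (10.5%) had a difference above 0 and 1051 (8.73%) below 0. Among the 2315, 1951 (84.3%) had the same sign in both experiments and a smaller change after TrimAway, and 0 had the same sign and a larger change after TrimAway. The other 364 (3.02% of genes tested) had opposite signs. Opposite signs were thus found in 15.7% of the differing genes, beside 2391 (19.9%) of all genes tested. With the replicate block, 1404 genes differed, 961 above and 443 below 0. Without TrimAway replicate 1, 695 differed, 610 above and 85 below 0, and without TrimAway replicate 3, 1184. Without deletion replicate 2, 2068 differed.

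Each effect on its own set the scale. After deletion, 31.0% of genes tested were higher and 27.6% lower, 7043 genes in all (4236 without deletion replicate 2). In the same fit of 4 groups, 0 genes passed for TrimAway by edgeR's quasi-likelihood test, 1813 had an unadjusted p under 0.05, and DESeq2 called 107. In a fit of the TrimAway libraries alone, which estimates their spread apart from the deletion libraries, 181 genes (1.73% of 10447) were higher and 136 (1.3%) lower, and with the replicate block 1265 were higher and 1426 lower. The biological coefficient of variation was 1.08 in the deletion libraries and 0.825 in the TrimAway libraries. The least-squares slope of the TrimAway on the deletion changes, through 0 and over all genes tested, was 0.265. A test for departure from that common proportion called 0 genes (459 at an unadjusted p under 0.05), and with the replicate block it called 3: Odc1 (ornithine decarboxylase, the first enzyme of polyamine synthesis), Ndufa1 and Npc1, which are named because they were the 3.

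**Figure D1:**
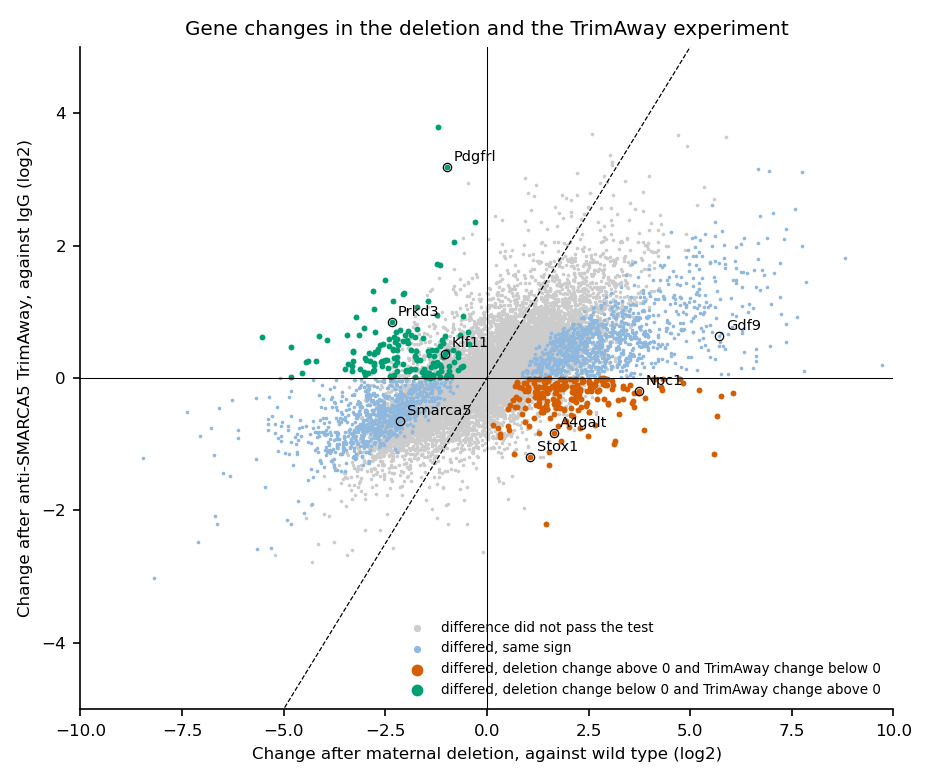
Log2 change of each of the 12035 tested genes after maternal deletion (x axis, against wild type) and after anti-SMARCA5 TrimAway (y axis, against IgG), on axes of different scale; the dashed line marks equal changes. Differing genes of the same sign (pale blue) lie between the dashed line and the x axis, and the 364 differing genes of opposite signs (orange and green) lie close to it.

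The 364 genes with opposite signs split into 205 with a positive deletion change and a negative TrimAway change, and 159 with the reverse. Their median absolute change was 1.90 on the log2 scale after deletion and 0.26 after TrimAway, and their median standard error for TrimAway was 0.47. Without deletion replicate 2 the count was 610, and without TrimAway replicate 1 it was 174. Without TrimAway replicate 2, which had no IgG libraries in the fit, it was 331. The deletion change passed the test in 341 of the 364. The TrimAway change had an unadjusted p under 0.05 in 22, and in 6 of these the deletion change did too: A4galt, Eif1, Gtdc1, Nudt12 and Stox1 with a positive deletion change, and Rnf2 with a negative one. With adjusted p-values, 0 genes passed in both experiments (79 with no filter on low counts, 1 with the replicate block). The absolute TrimAway change was at least 0.5 in 86 genes and at least 1 in 21. The sign of the difference was the same in all 4 combinations of a deletion replicate (1 or 2) with a TrimAway replicate (1 or 3) in 324 of the 364. It was the same in 41.5% of all genes tested, and the combinations reuse the libraries that called the 364.

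In fits of each experiment on its own libraries, 206 genes were called in both experiments and 0 of them had opposite signs. With the replicate number as a block in these fits, 1980 genes were called in both and 7 had opposite signs. A4galt, Npc2, Cox6a1, Eif1 and P4hb were higher after deletion and lower after TrimAway, and Klf11 and Bhlhe41 were lower after deletion and higher after TrimAway. The 7 were chosen after their values were seen. They are the genes for which each direction passed a test, and the promoters of 4 of them, 2 of each orientation, are shown to compare their letters. Each run is RefSeq sequence of GRCm38.p6, 5′ to 3′ on the gene's strand, from 250 bases before to 50 after the transcription start: A4galt at chr15:83251680-83251979 (minus), Npc2 at chr12:84773063-84773362 (minus), Klf11 at chr12:24651121-24651420 (plus) and Bhlhe41 at chr6:145865371-145865670 (minus). Capitals mark matches, on either strand, to any of 5 motifs. The TATA box was searched as TATAAA. The CCAAT box was searched by the letters of its name. The GC box was searched as GGGCGG, and the OTX-type homeobox site as the letters TAATCC. The canonical E-box was searched as CACGTG.
A4galt: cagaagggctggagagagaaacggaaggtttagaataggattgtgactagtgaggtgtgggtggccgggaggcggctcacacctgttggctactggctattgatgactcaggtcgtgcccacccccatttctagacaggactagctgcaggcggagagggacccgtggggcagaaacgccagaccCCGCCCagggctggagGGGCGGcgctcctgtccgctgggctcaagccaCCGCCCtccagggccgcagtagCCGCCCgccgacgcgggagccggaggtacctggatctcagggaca
Npc2: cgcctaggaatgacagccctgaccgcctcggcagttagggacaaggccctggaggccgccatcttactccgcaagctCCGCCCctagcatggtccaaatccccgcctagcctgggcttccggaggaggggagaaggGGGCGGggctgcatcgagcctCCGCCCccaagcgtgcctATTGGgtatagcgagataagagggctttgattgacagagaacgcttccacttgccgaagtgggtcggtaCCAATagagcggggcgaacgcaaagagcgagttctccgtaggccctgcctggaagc
Klf11: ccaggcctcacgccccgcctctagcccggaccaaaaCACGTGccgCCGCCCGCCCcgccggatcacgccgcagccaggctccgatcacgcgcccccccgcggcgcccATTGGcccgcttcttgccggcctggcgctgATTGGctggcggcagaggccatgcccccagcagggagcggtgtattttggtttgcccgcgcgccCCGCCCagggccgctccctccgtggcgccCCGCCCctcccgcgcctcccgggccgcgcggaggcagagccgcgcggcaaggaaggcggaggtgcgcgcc
Bhlhe41: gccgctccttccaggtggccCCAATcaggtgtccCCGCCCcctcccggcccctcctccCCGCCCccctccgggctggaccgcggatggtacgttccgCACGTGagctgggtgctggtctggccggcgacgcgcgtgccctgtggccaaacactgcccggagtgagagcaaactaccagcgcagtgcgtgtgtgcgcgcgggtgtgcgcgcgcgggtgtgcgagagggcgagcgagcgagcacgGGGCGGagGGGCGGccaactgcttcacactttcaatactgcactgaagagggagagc
The GC box was found 4 times in A4galt, 3 times in Npc2, and 4 times each in Klf11 and Bhlhe41, against at least 1 match in 35.9% of 27025 RefSeq promoters and in 64.1% of the promoters matched to genes tested here. The E-box was found 1 time in Klf11 and 1 time in Bhlhe41, and not in these windows of A4galt, Npc2, P4hb, Eif1 and Cox6a1, against 7.24% of all promoters and 10.4% of those of genes tested. CCAAT, found in 6 of the 7, was in 37.9% of all promoters and 40.0% of those of genes tested. TATAAA (14.2% of all promoters, 7.15% of those of genes tested) and TAATCC (7.16% and 5.78%) were in none of the 7. A match is a description of letters, not a site in use.

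Klf11 encodes a zinc-finger transcription factor of the Krüppel-like family (chr12:24651371-24662774, plus). Its level was 2.03 to 138 CPM (median 44.6) in maternal deletion, 17.8 to 233 (median 98.7) in wild type, 50.5 to 173 (median 82.9) after anti-SMARCA5 and 30.7 to 127 (median 66.7) after IgG. In 4 of 28 maternal deletion libraries it exceeded the wild-type median, and in 21 of 31 anti-SMARCA5 libraries it exceeded the IgG median, although the groups overlapped in each experiment. The difference was -1.40 (SE 0.32, adjusted p 0.00113), from -1.03 after deletion and 0.37 after TrimAway. Bhlhe41, a basic helix-loop-helix repressor that binds E-boxes and is known from the circadian clock, ran from 0 to 64.4 CPM (median 6.95) in maternal deletion, 0 to 97.6 (23.2) in wild type, 3.38 to 174 (44.7) after anti-SMARCA5 and 11 to 117 (32.2) after IgG. Its difference was -1.70 (SE 0.59, adjusted p 0.033), and its deletion change was -3.57 in replicate 1 and -0.41 in replicate 2.

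A4galt makes the glycolipid globotriaosylceramide and is the 1 gene that met both the naming rule and the tests in each experiment (chr15:83226726-83251774, minus). Its level was 1.47 to 125 CPM (median 38.6) in maternal deletion and 0 to 45.7 (median 6.55) in wild type, and 25 of 28 maternal deletion libraries exceeded the wild-type median. After anti-SMARCA5 it was 0 to 59.2 CPM (median 14.5) and after IgG 1.33 to 79.7 (median 25.2), and the IgG median was exceeded in 6 of 31 anti-SMARCA5 libraries. The difference was 2.46 (SE 0.59, adjusted p 0.00162) and stayed between 2.46 and 2.94 in the 4 replicate combinations. With each experiment fitted on its own and the block, the changes were 1.75 (adjusted p 0.00252) after deletion and -1.04 (adjusted p 0.024) after TrimAway.

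The other 4 genes serve the lysosome, mitochondrion, translation and endoplasmic reticulum. Npc2, which carries cholesterol inside the lysosome, had a difference of 1.19 (SE 0.42, adjusted p 0.0335), with medians of 134 CPM in maternal deletion, 85.9 in wild type, 91.1 after anti-SMARCA5 and 113 after IgG. Cox6a1, a subunit of cytochrome c oxidase, had a difference of 1.26 (SE 0.42, adjusted p 0.0241), with medians of 157, 125, 41.4 and 80.7 CPM in the same order. Eif1, which guides start-codon choice, had a difference of 0.99 (SE 0.29, adjusted p 0.01) with medians of 643, 398, 353 and 441 CPM. P4hb, protein disulfide isomerase, had medians of 326, 261, 200 and 279 CPM, and its difference of 0.94 did not pass (SE 0.39, adjusted p 0.0741; 0.00549 with the block). All 4 groups overlapped for these 4 genes.

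**Figure D2:**
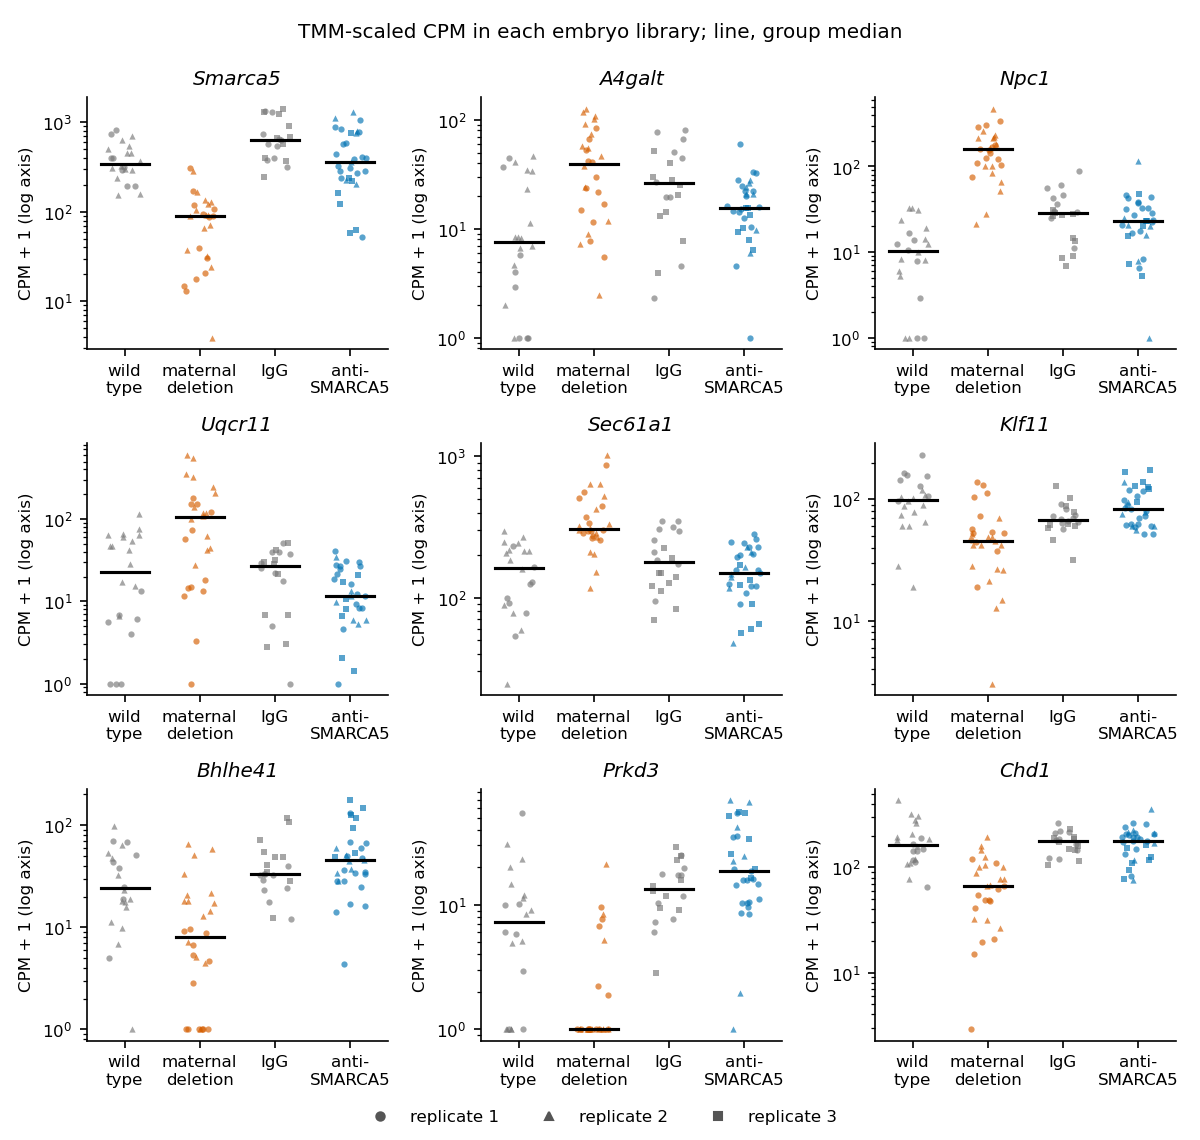
TMM-scaled CPM plus 1 (log axis) of 9 genes in the 101 libraries, by group, with the group median as a line and the replicate as the symbol. Maternal deletion sits lowest for Smarca5, Klf11, Bhlhe41, Prkd3 and Chd1 and highest for A4galt, Npc1, Uqcr11 and Sec61a1, while the anti-SMARCA5 and IgG libraries overlap for each of the 9 genes.

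The genes with a positive deletion change and a negative TrimAway change were named by the size of the smaller of the 2 changes, among those with a mean of at least 10 CPM in 1 group and 1 sign of the difference in all 4 replicate combinations. Besides A4galt they were Tex16, Nudt12, Gm14412, 2010109K11Rik, Stox1, Cyp7b1, Alg14, Hspb11 and Ypel4. The rule fixed the sign of the difference in each combination, not that of the TrimAway change. In replicate 1 the TrimAway change was 0.6 for Cyp7b1, 0.04 for Alg14 and 0.08 for Ypel4, and below 0 for the others named. Stox1 encodes a winged-helix DNA-binding protein. It was 0 to 79.5 CPM (median 11.6) in maternal deletion, 0 to 29.6 (8.16) in wild type, 0.823 to 69.9 (14.2) after anti-SMARCA5 and 4.33 to 200 (30.0) after IgG, so that the IgG embryos stood highest. Its changes were 1.07 (adjusted p 0.0447) and -1.20 (SE 0.45, unadjusted p 0.00815), and its difference was 2.28 (SE 0.65, adjusted p 0.00886). With uninjected in place of IgG embryos, the TrimAway change was -0.33 and the difference did not pass (1.44, adjusted p 0.135). Under that control 5 of the 10 genes named for this orientation did not pass: Stox1, Tex16, Nudt12 (adjusted p 0.187), 2010109K11Rik (0.224) and Cyp7b1 (0.0634). The TrimAway change had the other sign in 3, Gm14412 (1.56), Cyp7b1 (0.39) and Hspb11 (0.05).

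Nudt12, a peroxisomal NAD(H)-decapping hydrolase, was 0 to 32.5 CPM (median 2.9) in maternal deletion, 0 to 26.7 (0) in wild type, 0 to 26.7 (4.34) after anti-SMARCA5 and 0 to 56.5 (14.3) after IgG. Of the 31 anti-SMARCA5 libraries 3 exceeded the IgG median, and the difference was 2.83 (SE 0.96, adjusted p 0.0276). An antisense gene, Nudt12os, overlaps it, and the strand of the counting is not given in the sources used here. Hspb11 (also called Ift25, a part of the intraflagellar transport complex) had the clearest shift on the deletion side, with medians of 13.5 CPM in maternal deletion and 0 in wild type (highest 8.48), and 26 of 28 libraries above the wild-type median. Its TrimAway medians were 2.09 and 3.07 CPM, and its difference was 4.66 (SE 0.90, adjusted p 8.36e-05).

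Cyp7b1, the oxysterol 7α-hydroxylase, had medians of 10.2 CPM in maternal deletion, 0 in wild type, 0.98 after anti-SMARCA5 and 1.81 after IgG, and a difference of 4.13 (SE 1.08, adjusted p 0.00392). Alg14, a subunit of the enzyme that adds the second sugar of N-glycan precursors, had medians of 14.6, 6.78, 5.16 and 8.01 CPM and a difference of 2.12 (SE 0.71, adjusted p 0.0254; 0.0872 with the block). Tex16 on the X chromosome had medians of 0, 0, 0.531 and 4.22 CPM, and its difference of 3.67 (SE 1.28, adjusted p 0.0331) rested on the IgG libraries, where it reached 147 CPM: with uninjected embryos as the control, its TrimAway change was -0.04 and the difference had an adjusted p of 0.433. Ypel4 had a difference of 3.06 (adjusted p 0.0245) and 2010109K11Rik of 2.63 (adjusted p 0.0415), both at medians of at most 7.17 CPM in each group. Gm14412 held at most 3 counts in every wild-type library and in 20 of 28 maternal deletion libraries. It reached 72.1 CPM in maternal deletion (median 0), and no fold is given for it. Its difference had an adjusted p of 0.000201.

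The 10 genes named for the reverse orientation were Prmt10, Pdgfrl, Rabgap1l, Prkd3, Gm5595, Acad9, Fig4, Ltbp4, Mpdz and Tchh. Prkd3, a diacylglycerol-regulated protein kinase, was 0 to 20.2 CPM (median 0) in maternal deletion and 0 to 53.7 (6.26) in wild type, with 23 of 28 maternal deletion libraries at 3 counts or fewer. It was 0 to 67.9 CPM (median 17.8) after anti-SMARCA5 and 1.83 to 28.3 (12.5) after IgG, with 22 of 31 libraries above the IgG median. The difference was -3.19 (SE 0.84, adjusted p 0.00434), from -2.34 (adjusted p 0.000557) and 0.85 (SE 0.58, unadjusted p 0.145).

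Ltbp4, which anchors latent TGF-beta in the extracellular matrix, had medians of 2.22 CPM in maternal deletion, 14.6 in wild type, 25.8 after anti-SMARCA5 and 14.2 after IgG. Its difference was -2.93 (SE 0.74, adjusted p 0.00297), and the IgG median was exceeded in 23 of 31 anti-SMARCA5 libraries. Tchh, trichohyalin, a hair-follicle protein, had medians of 0, 32.5, 45.8 and 32.5 CPM and a difference of -4.10 (SE 0.92, adjusted p 0.000744). Prmt10, a member of the protein arginine methyltransferase family, had medians of 0, 0, 5.26 and 5.06 CPM and a difference of -4.12 (SE 1.07, adjusted p 0.00386). Maternal deletion stood lowest for Ltbp4 and Tchh, while for Prmt10 it was level with wild type at the median.

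Rabgap1l, a Rab GTPase-activating protein, was 0 to 51.2 CPM (median 3.97) in maternal deletion, 0 to 137 (6.44) in wild type, 8.6 to 353 (52.1) after anti-SMARCA5 and 3.6 to 97.1 (35.3) after IgG, so its level differed more between the experiments than within them. Its difference was -2.17 (SE 0.79, adjusted p 0.0401), and many small genes overlap it. Mpdz, a scaffold protein of tight junctions with many PDZ domains, had a difference of -1.31 (SE 0.48, adjusted p 0.0433) with medians of 36.3, 54.6, 70.6 and 56.3 CPM. Its deletion change did not pass (adjusted p 0.0831) and was -1.53 in replicate 1 and 0.12 in replicate 2, and the difference passed in 5 of 18 alternatives. Acad9, a factor of complex I assembly, had a difference of -2.46 (adjusted p 0.0464; 0.199 with the block), and Fig4, a phosphoinositide phosphatase of the endolysosome, of -2.67 (adjusted p 0.0412; 0.149 with the block). Gm5595 had a difference of -3.78 (SE 1.02, adjusted p 0.00538). Pdgfrl was at 3 counts or fewer in all 20 IgG libraries and in 25 of 31 anti-SMARCA5 libraries, and its difference of -4.16 (SE 1.14, adjusted p 0.0063) rested on few reads on the TrimAway side. Its deletion change of -0.97 did not pass (adjusted p 0.224) and was -3.95 in replicate 1 and 0.61 in replicate 2. With uninjected in place of IgG embryos, 3 of these 10 genes did not pass, Acad9 (adjusted p 0.155), Fig4 (0.296) and Mpdz (0.294), and the TrimAway change of Fig4 was -0.36.

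**Figure D3:**
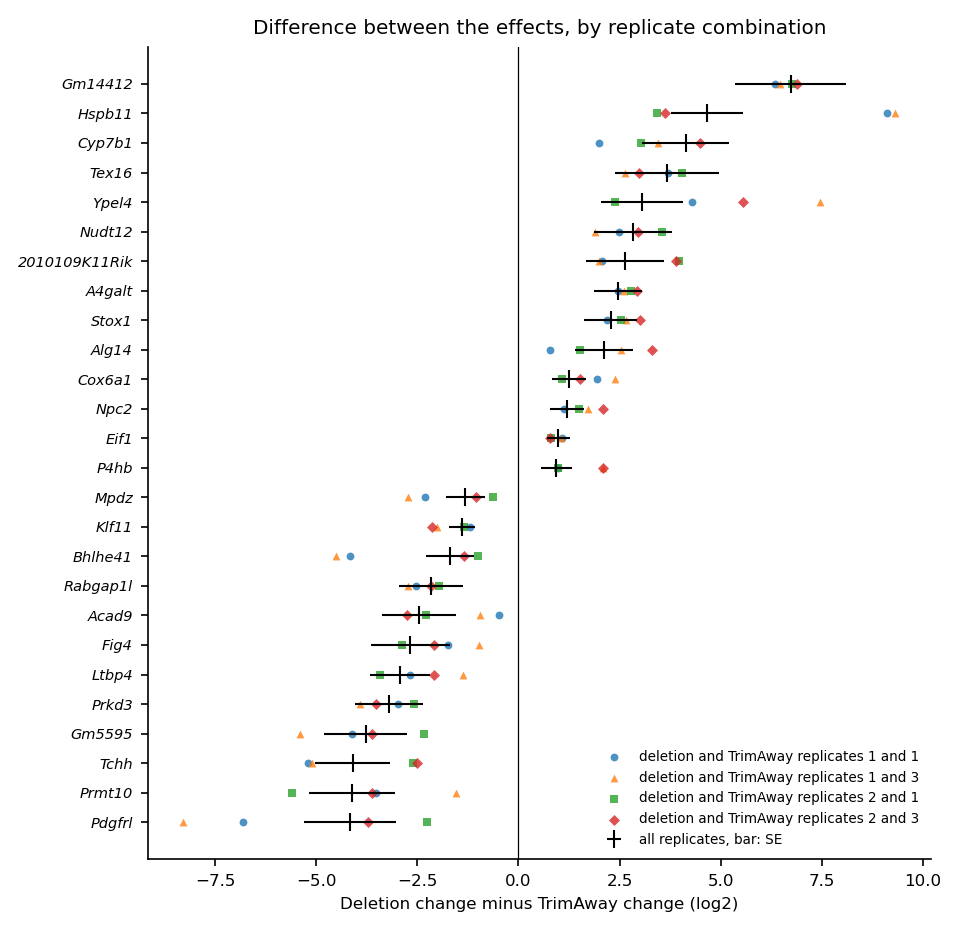
Deletion change minus TrimAway change (log2) for the 20 genes named by rule and the other 6 genes called in opposite directions in separate fits: the bar is the estimate over all replicates with its SE, and the symbols are the 4 combinations of a deletion with a TrimAway replicate. For the 20 genes the rule fixed that each symbol lies on the side of 0 of its bar; the symbols of Pdgfrl, Bhlhe41 and Hspb11 lie far apart by deletion replicate.

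Among genes with the same sign in both experiments, the 5 named for the largest differences in each orientation were at or near 0 in 1 group of the deletion experiment. Zbtb38, a zinc-finger protein that binds methylated DNA, had 0 counts in all 22 wild-type libraries and up to 222 CPM (median 5.97) in maternal deletion, which pooled over the groups is at least 782-fold higher against a floor of 3 counts. Its median was 17 CPM after anti-SMARCA5 and 1.24 after IgG, with 27 of 31 libraries above the IgG median and an unadjusted p of 0.019. Ppp1r16a, a regulatory subunit of protein phosphatase 1, had 0 counts in all 28 maternal deletion libraries and a median of 8.87 CPM in wild type (pooled, at least 1234-fold lower), with TrimAway medians of 7.23 and 18.5 CPM. At 3 counts or fewer were 11 of 28 maternal deletion libraries for Zbtb38 and 10 of 22 wild-type libraries for Ppp1r16a. The pooled folds weight the deepest libraries and are no bound for single embryos. For Esx1, Tspan3, Fxyd6 and Atf3 every wild-type library held at most 3 counts, and the maternal deletion medians were 4.31, 11.7, 11.8 and 2.94 CPM. For Gm14252, 1700013H16Rik, Sgsh and Mfsd12 at least 27 of 28 maternal deletion libraries held at most 3 counts, and the wild-type medians were 17.7, 21.9, 0 and 10.1 CPM. Gm14252 is antisense to Cnbd2, Sgsh to Card14 and Mfsd12 to Fzr1, so reads of these pairs cannot be told apart without strand. At the threshold itself, Gpr137c was the last gene inside (difference 1.90, adjusted p 0.0499) and Nkap the first outside (-2.39, adjusted p 0.05).

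Functions were compared through 42 lists of genes, written from general knowledge but with earlier results of these data known. They are described by counts and medians with no test of the list. Over all genes tested the median change was 0.19 after deletion and 0.08 after TrimAway, and the median difference 0.05. List counts are read against the 19.2% of all genes tested that differed. That share was 64.3% of the oocyte-secreted factors, 53.8% of CCT and prefoldin, 48.5% of ribosome biogenesis, 46.7% of the stress response, 35.5% of the Oog-type genes and 32.6% of the cytosolic ribosomal proteins. It was 31.7% of the lysosome list, 30.8% of ISWI, 29.8% of translation initiation, 28.3% of the spliceosome, 25.0% of the polymerase II list, 25.0% of the subcortical complex and Nlrp genes and 23.7% of the developmental regulators. It was 19.5% of the BAF list, near that of all genes, and lay below it for the respiratory subunits (11.5%) and the 2-cell transcripts (7.89%). The oocyte lists described next had medians above those of all genes, and other oocyte and maternal lists had lower deletion medians. These were 0.63 for oocyte transcription factors, 0.41 for maternal mRNA storage and 0.33 for oocyte protein turnover. They were 0.02 for maternal mRNA clearance and -0.3 for meiotic maturation. The median differences of these lists were 0.22, 0.27, -0.02, -0.08 and -0.07 in the same order. Of 14 oocyte-secreted factors and zona proteins, 9 differed above 0 and 0 below, and the list's median was 2.24 after deletion and 0.63 after TrimAway (difference 1.73). Without TrimAway replicate 1, 5 differed. The median difference was at least 1.55 in each of the 4 replicate combinations.

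Gdf9, a growth factor that the oocyte sends to its granulosa cells, was 20.1 to 26100 CPM (median 4380) in maternal deletion, 0 to 626 (47.1) in wild type, 63.6 to 1130 (278) after anti-SMARCA5 and 60.8 to 705 (199) after IgG. In 27 of 28 maternal deletion libraries it exceeded the wild-type median. Its deletion change was 5.72 (adjusted p 1.73e-19), its TrimAway change 0.63 (unadjusted p 0.0792) and its difference 5.09 (SE 0.52, adjusted p 1.52e-12). Bmp15, its paralogue, had medians of 1830, 323, 765 and 458 CPM, and its difference of 0.82 did not pass (SE 0.58, adjusted p 0.325). Oosp1, an oocyte-secreted protein, had medians of 844, 179, 584 and 602 CPM and a difference of 1.16 (SE 0.63, adjusted p 0.184). Zp3, a zona protein, was the 1 member with opposite signs. Its medians were 149 CPM in maternal deletion, 73.6 in wild type, 24.2 after anti-SMARCA5 and 39.2 after IgG. Its difference was 1.66 (SE 0.46, adjusted p 0.00672), on a TrimAway change of -0.37 (SE 0.32).

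Oog, Fbxw and Pramel-type genes, families expressed in oocytes, followed the same order. Of 31 tested, 11 differed above 0 (8 with the block, 4 without deletion replicate 2), 0 below, and the medians were 1.32 and 0.29. Oog4 (difference 2.41, SE 0.67, adjusted p 0.00719) and Fbxw22 (1.76, SE 0.64, adjusted p 0.04; 0.0898 with the block) differed with opposite signs, on TrimAway changes of -0.06 and -0.09. With uninjected in place of IgG embryos these changes were 1.22 and 0.74, and neither difference passed (adjusted p 0.216 and 0.303). The members with the highest level, Oog3, C87414 and E330034G19Rik, did not pass, with differences of 0.70, 1.36 and 0.60. Of 20 genes of the subcortical maternal complex and the Nlrp family, 5 differed above 0 (2 without deletion replicate 2) and 0 below, with medians of 1.49 and 0.53. Zbed3, Khdc1b and Nlrp9c, its members of highest level, had differences of 0.17, 0.69 and 0.80 that did not pass. Near-identical members of these families can share reads.

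Transcripts of genome activation stood differently. Of 38 listed 2-cell transcripts, 1 differed above 0 and 2 below, the medians were -1.07 after deletion and -0.22 after TrimAway, and 12 (31.6%, against 19.9% of all genes) had opposite signs. The median depended on the replicate: it was -2.93 in deletion replicate 1 and 0.23 in replicate 2, and -0.22 in TrimAway replicate 1 and -2.18 in replicate 3, so that the median difference ran from -2.45 to 2.42 over the 4 combinations. Obox6, an oocyte-type homeobox gene, had medians of 25.2 CPM in maternal deletion, 484 in wild type, 240 after anti-SMARCA5 and 394 after IgG, and a difference of -1.71 (SE 0.67, adjusted p 0.0567). Sp110, a nuclear-body protein, had medians of 43.1, 364, 238 and 642 CPM and a difference of -1.40 (SE 0.54, adjusted p 0.053). Gm2016 had a difference of -2.15 (SE 1.10, adjusted p 0.158). Gm8300 was the 1 member that differed with opposite signs (difference -2.86, SE 1.03, adjusted p 0.0399; 0.493 with the block), and its difference was 3.50 between deletion replicate 2 and TrimAway replicate 3. With uninjected embryos as control, 9 of 38 members differed below 0, as did 731 of 12394 genes tested.

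Genes of the translation machinery were lower after deletion, and their TrimAway medians lay below 0 but nearer to it. Of 86 cytosolic ribosomal protein genes, 28 differed below 0 and 0 above (6 below 0 with the block, and 0 without TrimAway replicate 1), 1 had opposite signs, and the medians were -2.06 after deletion and -0.68 after TrimAway. The deletion lowered 83 of the 86. In the TrimAway libraries on their own, 2 were lower and 61 were with the block. Rplp0, a protein of the ribosomal stalk, was 0 to 962 CPM (median 94.8) in maternal deletion, 335 to 1020 (729) in wild type, 24.8 to 1040 (417) after anti-SMARCA5 and 90.1 to 1390 (659) after IgG. Its difference was -1.46 (SE 0.48, adjusted p 0.0231; 0.101 with the block). The differences of Rpl41 (-1.19, adjusted p 0.162) and Rps27l (-0.21, adjusted p 0.76) did not pass.

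Of 66 factors of ribosome biogenesis and the nucleolus, 31 differed below 0 and 1 above (12 and 0 with the block, 1 below without TrimAway replicate 1), with medians of -2.18 and -0.64. Dkc1, the pseudouridine synthase of H/ACA particles, had a difference of -1.09 (adjusted p 0.0275; 0.158 with the block), while Npm1 (-0.06, adjusted p 0.926) and Rrn3 (-0.73, adjusted p 0.109) did not pass. Tsr1, which matures the small subunit, and Npm3, a nucleoplasmin-family chaperone, had opposite signs. Their differences were -1.45 (adjusted p 0.012, and 0.0644 with the block) and 1.18 (adjusted p 0.0469, and 0.0982 with the block). The TrimAway change of Tsr1 was 0.03 over all libraries. It was -0.02 in replicate 1, -0.54 in replicate 3 and -0.23 with the block, the sign of its deletion change (-1.42). The TrimAway change of Npm3 was -0.16, with -0.47 in replicate 1 and 0.64 in replicate 3. Of 57 translation initiation factors, 15 differed below 0 and 2 above (4 and 2 with the block). Eif5 had a difference of -0.94 (adjusted p 0.0439; 0.235 with the block), and Eif5a (-0.17) and Eif4g2 (0.32) did not pass. Of 13 subunits of the CCT chaperonin and prefoldin, which fold actin and tubulin, 7 differed below 0 (3 with the block). Tcp1 (-1.62, adjusted p 0.0129; 0.0928 with the block) and Cct8 (-1.04, adjusted p 0.0242; 0.0935 with the block) were among them, and Cct3 (-0.97, adjusted p 0.166) was not.

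**Figure D4:**
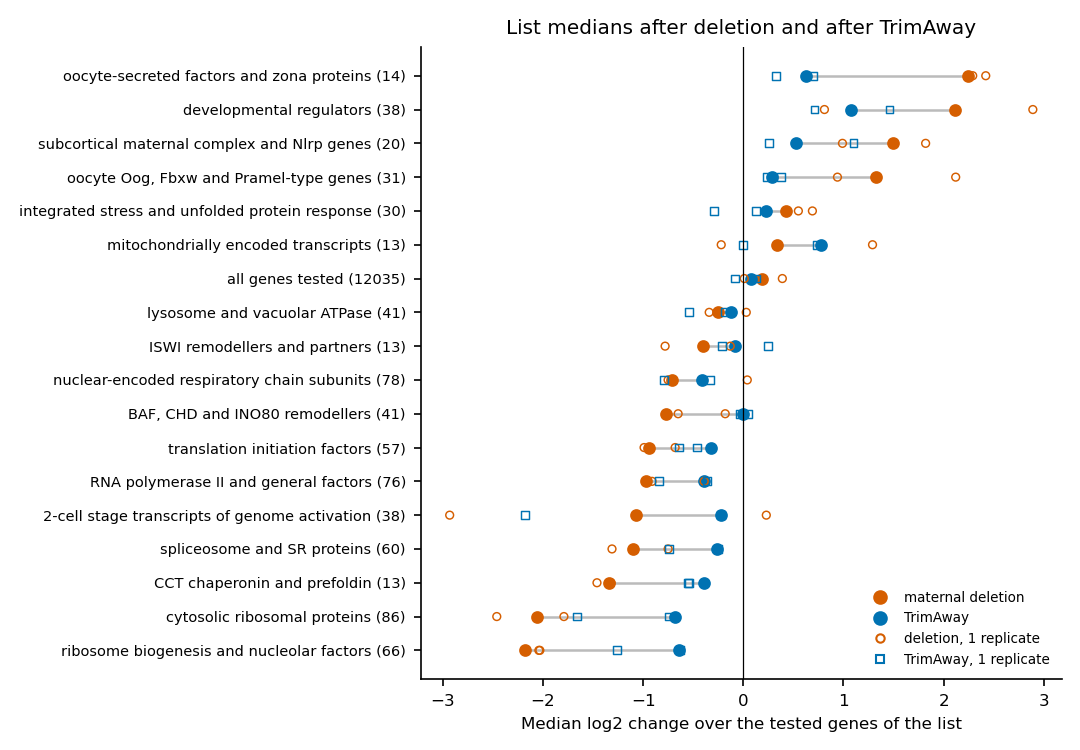
Median log2 change of the tested genes of each described list (number in brackets) after maternal deletion (orange) and after TrimAway (blue), with the medians of single replicates as open symbols. The list of oocyte-secreted factors lies highest (2.24) and the ribosome lists lowest (-2.06 and -2.18) after deletion, the TrimAway median lies nearer to 0 except for mitochondrially encoded transcripts, and the 2 deletion replicates of the 2-cell transcripts lie on either side of 0.

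Splicing, transcription and chromatin genes had a share of opposite signs above that of all genes (19.9%) in some lists and below it in others. Of 60 spliceosome and SR protein genes, 16 differed below 0 and 1 above (7 and 2 with the block, 1 below without TrimAway replicate 1), 16 (26.7%) had opposite signs, and the medians were -1.10 and -0.26. Prpf4b, a kinase of the spliceosome, was 0 to 71.9 CPM (median 12.2) in maternal deletion, 0 to 220 (59.0) in wild type, 7.38 to 297 (116) after anti-SMARCA5 and 10.9 to 285 (85.7) after IgG. Its difference was -2.06 (SE 0.57, adjusted p 0.00692). Its TrimAway change was 0.31 (SE 0.4), with 0.49 in replicate 1 and -0.54 in replicate 3. Prpf38b, which helps activate the spliceosome, had medians of 51.3, 98.7, 124 and 104 CPM and a difference of -1.27 (SE 0.41, adjusted p 0.0195), on a TrimAway change of 0.42 (unadjusted p 0.143). Sf3b2 of the U2 particle had a difference of -1.22 (adjusted p 0.0155; 0.0533 with the block), and Lsm6, of the ring that binds U6, had the reverse signs (difference 1.62, SE 0.43, adjusted p 0.00455). The TrimAway change of Sf3b2 was 0.1. That of Lsm6 was -0.17, with 0.12 in replicate 1 and -0.41 in replicate 3. Sf3b1 fell by 1.49 after deletion and differed by -1.24 (adjusted p 0.00443), and Snrpg (-0.16) and Snrpe (0.32) did not pass. Outside the list, and chosen after their values were seen, Hnrnpa2b1 and the RNA helicase gene Ddx5 were lower after deletion. Hnrnpa2b1 had a difference of -1.47 (adjusted p 0.00356) and Ddx5 of -0.91 (adjusted p 0.0253, and 0.154 with the block). Their TrimAway changes were 0.01 and 0.03 over all libraries. In replicates 1 and 3 these changes were -0.51 and -0.01 for Hnrnpa2b1, and -0.21 and -0.36 for Ddx5.

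Of 76 RNA polymerase II subunits and general factors, 15 differed below 0 and 4 above (6 and 2 with the block), and 12 (15.8%) had opposite signs. Polr2j, a small polymerase subunit, was 120 to 2100 CPM (median 904) in maternal deletion and 107 to 1200 (264) in wild type, but 16.7 to 957 (308) after anti-SMARCA5 and 78.7 to 551 (359) after IgG. Its difference was 1.51 (SE 0.34, adjusted p 0.000892) with opposite signs. Its TrimAway change was -0.07 (SE 0.24), with -0.44 in replicate 1 and 0.45 in replicate 3. Supt6h, an elongation factor and histone chaperone, had a difference of -1.04 (SE 0.36, adjusted p 0.0308), from -0.93 and 0.11. Taf9, a TFIID and SAGA subunit, was lower after deletion and differed by -1.57 (SE 0.35, adjusted p 0.000699), whereas Gtf2a1 (0.12) did not pass.

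Of 41 BAF, CHD and INO80 remodeller genes, 8 differed below 0 and 0 above (3 with the block), and 7 (17.1%) had opposite signs. Chd1, a remodeller that binds H3K4 methylation, was 1.88 to 192 CPM (median 65.5) in maternal deletion and 63.4 to 431 (162) in wild type, with 1 of 28 libraries above the wild-type median, and 74.9 to 358 (176) after anti-SMARCA5 and 104 to 261 (175) after IgG. The difference was -1.35 (SE 0.31, adjusted p 0.00107), with a 0.02 change after TrimAway. That TrimAway change was 0.06 in replicate 1, -0.46 in replicate 3 and -0.14 with the block. Brd9, a subunit of the non-canonical BAF complex, had a difference of -2.03 (SE 0.63, adjusted p 0.0152; 0.188 with the block), and its difference was 0.20 between deletion replicate 1 and TrimAway replicate 3. Arid1a (-0.10), Arid2 (0.94) and Gatad2a (0.15), the members of highest level, did not pass. Of the 13 ISWI remodellers and partners, 2 differed above and 2 below 0 (1 and 1 with the block), and 6 (46.2%) had opposite signs. Rbbp7, a histone-binding subunit, had a difference of 0.91 (SE 0.31, adjusted p 0.0273; 0.145 with the block) with opposite signs, and Bptf (-0.19) and Cecr2 (-0.25), which pair with SMARCA5 or SMARCA1, did not pass. The TrimAway change of Rbbp7 was -0.14, with -0.21 in replicate 1 and 0.13 in replicate 3.

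Among 78 nuclear-encoded respiratory chain subunits, 6 differed above 0 and 3 below (6 and 1 with the block), 23 (29.5%) had opposite signs, and 33 were lower after deletion while 8 were higher. The 4 that differed with opposite signs were Ndufa1, Ndufa3, Uqcr11 and Cox6a1. Ndufa1, an X-linked subunit of complex I, was 13.8 to 846 CPM (median 257) in maternal deletion, 3.68 to 82.1 (23.3) in wild type, 15.8 to 608 (100) after anti-SMARCA5 and 24.6 to 401 (116) after IgG. Its deletion change was 3.44 (adjusted p 4.15e-14), its TrimAway change -0.17 (unadjusted p 0.579) and its difference 3.62 (SE 0.45, adjusted p 1.28e-09). Uqcr11, of complex III, was 0 to 605 CPM (median 104), 0 to 115 (21.8), 0 to 39.7 (10.5) and 0 to 50.2 (26) in the same order, with a difference of 2.77 (SE 0.63, adjusted p 0.000808) and a TrimAway change of -0.74 (unadjusted p 0.0916).

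Ndufa3 had a difference of 2.37 (SE 0.81, adjusted p 0.0289) at medians of at most 11.2 CPM. Its TrimAway change was -0.48 (SE 0.57), with -0.76 in replicate 1 and 0.11 in replicate 3. Of the members of highest level, Ndufa4 differed by 2.53 (adjusted p 1.24e-06) on a TrimAway change of 0.04, and Cox8a (0.24) and Atp5b (0.44) did not pass. Of 13 mitochondrially encoded transcripts, 0 differed by edgeR's quasi-likelihood test (1 at an unadjusted p under 0.05), and 4 differed below 0 with uninjected in place of IgG embryos (731 of 12394 genes tested did). Their levels differed between the control groups: mt-Co1 had medians of 4060 CPM in wild type and 51400 after IgG, mt-Nd1 6070 and 32900, and mt-Cytb 12900 and 27900. The differences of these 3 were -0.07, -1.06 and -0.42.

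Among 41 lysosome and vacuolar ATPase genes, 7 differed above 0 and 6 below, 15 (36.6%) had opposite signs, and 5 differed with opposite signs: Npc1, Npc2, Lamp1, Atp6v1g1 and Atp6v1e1, the last outside the naming rule and named after its values were seen. Npc1, the membrane protein that takes cholesterol from NPC2, was 20.1 to 470 CPM (median 158) in maternal deletion and 0 to 32 (9.38) in wild type, with all 28 maternal deletion libraries above the wild-type median. After anti-SMARCA5 it was 0 to 116 CPM (22.1) and after IgG 5.91 to 86.5 (27.4). Its deletion change was 3.74 (adjusted p 7.04e-15), its TrimAway change -0.20 (unadjusted p 0.529) and its difference 3.94 (SE 0.47, adjusted p 2.8e-10). Lamp1, a glycoprotein of the lysosomal membrane, had medians of 143, 51.8, 35.2 and 41.5 CPM and a difference of 1.16 (SE 0.43, adjusted p 0.0431). Atp6v1g1, a subunit of the proton pump, had the reverse signs (medians 14.7, 47.3, 16.5 and 11.6 CPM, difference -1.67, SE 0.59, adjusted p 0.0358). The TrimAway changes of Lamp1 and Atp6v1g1 were -0.13 (SE 0.3) and 0.63 (SE 0.42). Ctsl (-1.07), Lamp2 (-0.09) and Atp6v0e (-0.04) did not pass.

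Of 30 genes of the integrated stress and unfolded protein response, 10 differed above 0 and 4 below (8 and 1 with the block, 6 above without deletion replicate 2), with medians of 0.43 and 0.23. Canx, the lectin chaperone calnexin, was 377 to 4570 CPM (median 1350) in maternal deletion, 227 to 1750 (476) in wild type, 241 to 1070 (464) after anti-SMARCA5 and 189 to 947 (431) after IgG, and its difference was 1.29 (SE 0.28, adjusted p 0.000431). Dnajb9 differed the other way (-1.90, SE 0.53, adjusted p 0.00721; 0.146 with the block, and 0.45 between deletion replicate 2 and TrimAway replicate 3), and Hspa5 did not pass (-0.09). Chosen after their values were seen, 3 other genes of the endoplasmic reticulum had opposite signs. Sec61a1, the channel of protein translocation, was 117 to 1030 CPM (median 305) in maternal deletion, 23.6 to 295 (161) in wild type, 46.4 to 283 (149) after anti-SMARCA5 and 68.7 to 350 (177) after IgG, with a difference of 1.60 (SE 0.30, adjusted p 5.61e-05). Stt3a, of the N-glycosylation complex, had a difference of 1.54 (SE 0.37, adjusted p 0.0018) and Erp29 of 1.11 (SE 0.36, adjusted p 0.0202), on TrimAway changes of -0.27 and -0.32. The TrimAway change of Sec61a1 was -0.31 (SE 0.21).

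Of 38 developmental regulators, 8 differed above 0 and 1 below, with medians of 2.11 after deletion and 1.08 after TrimAway, and 0 differed above 0 without deletion replicate 2. Hoxa7 was higher after deletion (0.93, adjusted p 0.0106) with a TrimAway change of 1.0 (unadjusted p 0.0027), so that the difference was -0.07 (SE 0.45). Lef1, a Wnt effector, had changes of 2.33 (adjusted p 1.2e-05) and 1.45 (unadjusted p 0.00169) and a difference of 0.88 (adjusted p 0.311). Neurog3, a neuroendocrine bHLH factor, had opposite signs, with medians of 91.2, 20.6, 35.7 and 48.3 CPM and a difference of 1.63 (SE 0.42, adjusted p 0.0037), and Tbx3 did not pass (-0.51). The TrimAway change of Neurog3 was -0.15 (SE 0.3). TrimAway replicate 1 bore on these list counts. Without it, the genes differing below 0 numbered 2 of the translation initiation factors, 2 of the polymerase II list, 1 of CCT and prefoldin, and 0 of the BAF, ISWI, respiratory and lysosome lists. Of the 25 genes named from lists for opposite signs, 7 did not pass with uninjected in place of IgG embryos (Oog4, Fbxw22, Atp6v1g1, Brd9, Rbbp7, Sf3b2 and Supt6h), and the TrimAway change of 9 had the other sign. Over the other 25 lists, 152 of 774 memberships tested differed and 9 differed with opposite signs, and the list medians of the difference ran from -1.30 to 0.68.

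The control groups of the 2 experiments differed in level. Wild-type embryos had a lower mean than IgG embryos in 86.3% of the 205 genes with a positive deletion change, 30.8% of the 159 with a negative one and 59.0% of all genes tested. Genes that differed with the same sign gave like shares, 88.6% for those higher and 25.2% for those lower after deletion. These means enter the contrast that chose the genes, so the shares are descriptions. When uninjected embryos (15 libraries) replaced IgG embryos, 102 of 204 genes of the first orientation and 101 of 159 of the second had opposite signs again, and 162 of the 364 also differed. The uninjected embryos lacked the injection as well as the antibody, and 554 genes differed with opposite signs against them. The median exonic length was 3680 bases in the 205 genes, 5438 in the 159 and 4380 in all genes tested.

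Replicates of the deletion experiment differed from each other. The deletion effect differed between replicates 1 and 2 for 923 of 12035 genes, 29 of them among the 364, and the TrimAway effect between replicates 1 and 3 for 1. In the 4 combinations of a deletion with a TrimAway replicate, 939 genes (1 with 1), 140 (1 with 3), 1595 (2 with 1) and 903 (2 with 3) differed, and 348, 83, 318 and 316 of these had opposite signs. The sign of the difference was the same in all 4 for 84.5% of the differing genes and 41.5% of all genes tested. The combinations share replicates and reuse the libraries that called the genes, so these shares are descriptions.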

How the data were processed

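The deposited files are 2 tables of raw counts per gene, made by the authors and not normalized. The submitters' processing notes name HISAT2 2.1.0, Trim Galore 0.6.5 and cutadapt 2.3, and the counting tool and its strand setting are not given in the sources used here. The tables were joined by gene ID (25965 lines, 57 IDs on more than 1 line, whose lines were summed, 25900 genes). Of the libraries of the 4 groups, 18 had under 100000 total counts and were left out. Totals of the rest (median 1474349) limit precision for genes of few reads.

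The contrast was fitted with edgeR 4.0.16 (R 4.3.3): TMM scaling, filterByExpr, 1 mean per group and the quasi-likelihood F test, with Benjamini-Hochberg adjustment over all 12035 genes. SE is the absolute log2 change divided by the square root of F. CPM are TMM-scaled. The script was tested on simulated data. Lists are described by counts and medians. Sequences are RefSeq, GRCm38.p6, and overlaps are from GENCODE M21.

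Members and lists were chosen with earlier results of these data known. Named were Smarca5, Trim21, the 10 opposite genes of each orientation described above, the 5 largest same-sign differences in each orientation with a mean of at least 10 CPM in 1 group and 1 sign in all 4 replicate combinations, and per described list the 3 members of highest level and up to 4 differing with opposite signs.

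Replicate numbers mark pools of embryos, per the design text. Deviations from the group means of same-numbered libraries correlated between the groups, at 0.485 in the deletion and 0.57 in the TrimAway experiment, so the block, nested in experiment, was an alternative. The others were DESeq2 1.42.0, limma 3.58.1 (voom), other scalings, filters and depth minimums, replicates left out, uninjected in place of IgG embryos, and thinning.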

Additional observations from a re-analysis of the deposited data

Results flagged for a closer look

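The 3 wells labelled as holding no embryo gave total counts of 823 (G03), 1875 (H03) and 453 (F05), above the limit that a count of 0 allows, and lie under the minimum of 100000 counts used for embryos. The deletion change differed between replicates 1 and 2, by a test of that difference, for 13 named genes. Replicate 1 minus replicate 2, on the log2 scale, was 5.74 for Sgsh and below 0 for the others. It was -3.17 for Bhlhe41, -4.56 for Pdgfrl, -4.54 for Gm2016 and -4.90 for Gm8300. It was -2.04 for Bmp15, -2.14 for Oog3, -2.22 for Rpl41 and -2.21 for mt-Nd1. It was -1.75 for Arid2, -1.06 for Cecr2, -1.55 for Eif4g2 and -1.30 for Gtf2a1. The part of the lane, which differed between these replicates, was not tested. The TrimAway change of Trim21 differed between replicates 1 and 3 by 13.78, a fitted value that is no bound because the IgG libraries of replicate 1 were all at 0.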

How the results depend on the processing

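The number of differing genes (2315) was 4285 with no filter on low counts, 4107 with limma voom and 1 weight per group, and 151 with libraries thinned to 100000 counts; with 1 replicate left out it ran from 695 to 2646. Single replicate combinations gave 939, 140 and 903 where they moved. Opposite genes (364) numbered 1347 with no filter, 554 against uninjected embryos, 550 with voom, 40 after thinning and 83 in deletion replicate 1 with TrimAway replicate 3, and 174 to 610 with a replicate left out. Opposite genes called in each experiment (0) numbered 79 with no filter, 7 against uninjected embryos and 4 without deletion replicate 2. Deletion calls (7043) were 11535 with no filter, 4236 to 7608 with a replicate left out and 1643 after thinning. TrimAway calls (0) were 107 with DESeq2, 2073 with no filter, 26 with no minimum depth, 9 without wells A04, G05 and H05, 837 against uninjected embryos, 2124 with voom, 10 without well C02, 0 to 518 with a replicate left out (8 without TrimAway replicate 3), and 317 in separate fits. Genes off the common proportion (0) numbered 1 with DESeq2, 392 with no filter, 12 against uninjected embryos, 31 with voom, and 0 to 5 with a replicate left out (2 without TrimAway replicate 3). The cause was not tested. Voom, thinning, well C02 and the separate fits were chosen after seeing the data.

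Blocked on the replicate number, 1404 genes differed, 1 was opposite and called in each experiment, 701 were called for TrimAway (2691 in separate fits) and 3 were off the proportion; 254 of the 364 were still opposite, 182 of them differing. Of 74 named genes past the threshold, 3 had the other sign in a replicate combination, and of 41 not past it 31 did. The 74 include the 10 opposite and the 5 same-sign genes named for each orientation, whose sign the naming rule had fixed. These counts are therefore no measure of replication. Where the value passed in all replicates or in the combination, the reversed ones were Brd9 0.20 and Hspa5 2.04 (deletion replicate 1, TrimAway replicate 3), and Dnajb9 0.45 and Gm8300 3.50 (deletion replicate 2, TrimAway replicate 3). Of the 208 and 211 alternative values of the 10 named opposite genes of each orientation, 144 and 128 stayed past the threshold; the naming rule itself fixed their sign in the replicate combinations. The median difference over all genes, 0.05 on the log2 scale, was -0.28 with DESeq2, 0.36 without deletion replicate 1 and -0.21 with voom. Low counts limit genes under a few CPM: of the 364, 143 were tested after thinning and 7 were still opposite and differing.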
